A study of Drosophila melanogaster with 15 samples.

Results

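elav and Rbp9 are the members of the ELAV family of RNA-binding protein genes that could be read on arrays of 5 dissected tissues of Drosophila melanogaster larvae. They were found as the rows of the deposited value table that an annotation of the array gives to one gene with the symbol elav or Rbp9. This gave 2 genes of 9894 named genes measured, on 3 rows: elav (gene ID 31000, on chromosome X) had 1 row, and Rbp9 (gene ID 33498, on chromosome arm 2L) had 2. The pair was chosen by its measured log2 ratios, which had been seen to differ between the 2 genes over the tissues, so their levels are given as a description and carry no test.

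Larvae of wild-type Canton S were dissected some 18 hours ahead of pupariation. The central nervous system, the midgut, the wing disc, the salivary gland and the epidermis with its attached muscle (called epidermis below) were each measured on 3 arrays of independent samples, 15 arrays in all. On every array the amplified RNA of 1 tissue, in Cy5, was set against that of whole animals of the same stage, in Cy3, and no dyes were swapped. Each value is therefore the log2 of tissue over whole animal, and 0 is the median of an array's rows. The sources used here do not give the number of animals per sample, nor whether the reference was 1 pool.

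ELAV proteins carry RNA recognition motifs that bind uridine-rich and AU-rich stretches of transcripts, and they belong to the same family as the vertebrate Hu proteins. The protein of elav, short for embryonic lethal abnormal vision, is nuclear in neurons, where it directs alternative splicing and the choice of poly(A) sites, and it is the standard marker of Drosophila neurons. Rbp9 is known from the adult nervous system, where it acts in the blood-brain barrier, and from the female germ line, where it acts in cyst differentiation. The family's other fly gene, fne (found in neurons), had 0 rows of its own in the annotation used and was not analysed here. The arrays do not tell the isoforms of a gene apart, and which of them a spot reads is not known here. Fewer cells of a type and less RNA per cell cannot be told apart on the arrays either.

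Arrays measured between 7747 and 13505 rows, and all 3 rows of elav and Rbp9 had a value on all 15 arrays. The tissue labels were set beside marker genes. These lists were chosen with earlier results of these data known, so this is no independent check. All 5 salivary gland, all 13 midgut and all 4 wing disc markers that could be compared over the tissues were highest in their own tissue. So were 12 of 14 larval muscle genes and 6 of 10 epidermis and cuticle genes in epidermis. The lists held 9 salivary gland, 14 midgut and 12 wing disc genes before those not comparable were left out. Of the wing disc genes measured but left out, and named after their values were seen, vg, nub and hh were highest in wing disc. The genes dpp, en and ap were not. Among genes of neurons, 8 of 17 were highest in the central nervous system, and among genes of glia 2 of 7, against 19.0% of all 8432 features.

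elav was high in the central nervous system and near or below the whole animal elsewhere. In the central nervous system its log2 ratio was 1.97, 2.44 and 2.74 on the 3 arrays, a mean of 2.38 (SD 0.388, n = 3), which is 5.22 times the whole animal. In wing disc the arrays read -0.66, 0.08 and 0.18 (mean -0.13, SD 0.458). In epidermis they read -0.12, -0.65 and -0.39 (mean -0.39, SD 0.267). All 3 arrays of the central nervous system thus stood more than 1 log2 above every array of these tissues.

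In midgut elav read -1.04, -0.19 and -0.68 (mean -0.63, SD 0.426), and in salivary gland -1.29, 0.02 and -0.96 (mean -0.74, SD 0.681). The order of the tissue means was central nervous system, wing disc, epidermis, midgut and salivary gland. Only the first step of that order, of 2.52 log2 or 5.72-fold, exceeded the spread between arrays (pooled SD 0.424). The other steps, of 0.25, 0.25 and 0.11 log2, were smaller than the pooled SD of the tissues they join, and the arrays of those tissues overlapped. The lowest tissue, salivary gland, lay 3.13 log2 or 8.74-fold below the central nervous system.

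Rbp9 had another profile, highest in epidermis and lowest in the central nervous system. Averaged over its 2 rows, its log2 ratio in epidermis was -0.06, 0.73 and 0.87, a mean of 0.51 (SD 0.503, n = 3), or 1.43 times the whole animal. In the central nervous system it was -2.20, -2.01 and -3.31, a mean of -2.50 (SD 0.702), which puts the whole animal 5.68-fold above this tissue. Each array of the central nervous system was lower than each array of epidermis, midgut and salivary gland, while 1 wing disc array lay among them.

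Between these ends stood midgut at -1.53, -1.42 and -0.82 (mean -1.26, SD 0.384), wing disc at -1.32, -2.10 and -1.99 (mean -1.80, SD 0.42) and salivary gland at -1.93, -1.66 and -1.97 (mean -1.85, SD 0.169). The step from epidermis to midgut was 1.77 log2 or 3.41-fold, against a pooled SD of 0.447, and the arrays did not overlap. Wing disc and salivary gland differed by 0.05 log2, less than their pooled SD of 0.32. The step from midgut to wing disc, 0.54 log2, was above the pooled SD of 0.402 but the arrays overlapped. That from salivary gland to the central nervous system, 0.65 log2, was above the pooled SD of 0.511. Their arrays did not overlap but nearly met, at -1.97 in salivary gland and -2.01 in the central nervous system. From epidermis to the central nervous system Rbp9 fell by 3.02 log2, or 8.1-fold.

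No tissue held Rbp9 far above the whole animal. Its epidermis arrays straddled 0, with replicate 1 near it and replicates 2 and 3 above it, and all 12 arrays of the other tissues were below 0. Without epidermis replicate 1, the difference between epidermis and the mean of the other 4 tissues was 2.66 log2, against 2.37 with it.

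**Figure D1:**
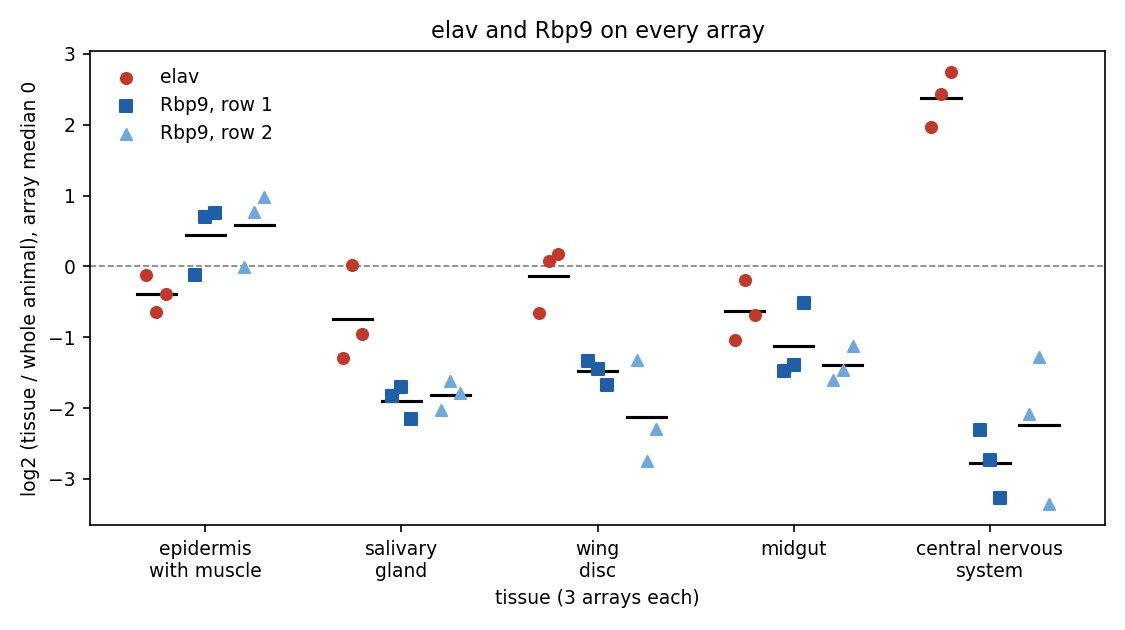
Log2 (tissue / whole animal) for the row of elav (red) and both rows of Rbp9 (blue) on each of the 15 arrays, with array medians at 0. Points are arrays and bars are tissue means. elav is at 1.97 or higher on the central nervous system arrays and at 0.18 or lower on all others, and both rows of Rbp9 have their highest mean in epidermis and their lowest in the central nervous system.

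The 2 rows of Rbp9 are separate spots, so they measure the gene again on the same RNA and are not further replicates. They lay within 0.5 log2 of each other on 11 of 15 arrays, with a median absolute difference of 0.187. The widest gaps were in wing disc replicate 2, where row 1 read -1.45 and row 2 read -2.75, and in central nervous system replicate 2, where row 1 read -2.73 and row 2 read -1.28. Both rows had their highest mean in epidermis, at 0.45 (SD 0.49) and 0.58 (SD 0.519), and their lowest in the central nervous system, at -2.77 (SD 0.481) and -2.24 (SD 1.04).

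How low Rbp9 was in the central nervous system depended on the row. By row 1 it stood at -1.75 log2 from the other 4 tissues' mean, and by row 2 at -1.05. On row 2 the central nervous system arrays, at -2.09, -1.28 and -3.35, overlapped those of salivary gland, wing disc and midgut. On row 1, at -2.31, -2.73 and -3.27, they were below every array of those tissues. Wing disc and salivary gland also changed places between the rows, and epidermis stayed clear of all others on both.

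Set against each other within an array, the genes parted most in the central nervous system. The log2 ratio of Rbp9 minus that of elav was -4.17, -4.45 and -6.05 there, a mean of -4.89 (SD 1.02, n = 3). In epidermis it was 0.05, 1.38 and 1.26 (mean 0.90, SD 0.734), the 3 arrays on which Rbp9 had the higher ratio. It was -0.62 (SD 0.557) in midgut, -1.11 (SD 0.528) in salivary gland and -1.67 (SD 0.871) in wing disc. These are differences between ratios to the same reference, and they do not say which gene has more transcript in a tissue. All 3 arrays of the central nervous system were below, and all 3 of epidermis above, the arrays of the other tissues.

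**Figure D2:**
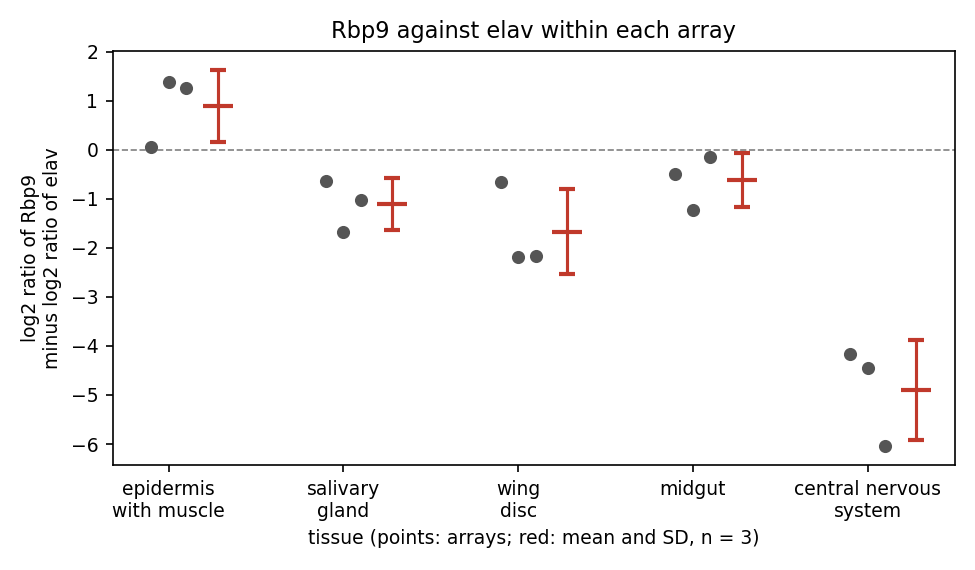
Difference between the log2 ratios of Rbp9 (mean of 2 rows) and elav on each of the 15 arrays, by tissue. Grey points are arrays and red marks are the mean and SD of 3 arrays. The central nervous system lies between -6.05 and -4.17, and epidermis holds the 3 arrays above 0.

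Among all 8432 features that could be compared across the tissues, elav had the 13th highest difference between the central nervous system and the mean of the other 4 tissues, at 2.86 log2 or 7.25-fold. For Rbp9 that difference was -1.40 log2, the 240th lowest. Between epidermis and the other 4 tissues Rbp9 had the 149th highest value, at 2.37 log2 or 5.16-fold, and elav stood at -0.60. The combination of a highest mean in epidermis and a lowest mean in the central nervous system occurred in 471 features, 5.59% of all. As a measure of likeness, each gene's 5 tissue means were centred on their own mean and the root mean square difference between the profiles was taken. By it elav and Rbp9 were 1.91 log2 apart, farther than elav's median distance of 1.22 from 6623 named genes and than Rbp9's median of 1.09. The pair was chosen for differing over these same tissues, so the ranks and this distance describe that choice and are no evidence of a difference.

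The named genes whose profile was most like that of elav were read from the same distance. The nearest was alrm, a marker of astrocyte-like glia, at 0.12 log2, followed by CG8245, a gene with no name, at 0.136, Frmd5, of the FERM domain family, at 0.175, and Nrk, a receptor tyrosine kinase gene named for its neural expression, at 0.212. The rest of the nearest 10 were VhaM9.7-a, of the vacuolar proton pump, Ilp2, an insulin-like peptide gene of brain neurosecretory cells, Tace, a membrane metalloprotease gene, CG3618, NaPi-III, a phosphate transporter gene, and CG17803, at distances up to 0.30. Their means in the central nervous system ran from 1.86 in Nrk and NaPi-III to 2.88 in Ilp2, beside 2.38 in elav. Each was highest there, and 9 of them lay at 0.33 or lower in each other tissue, Ilp2 reaching 0.36 in midgut.

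Rbp9 had a muscle gene as its nearest neighbour. It was up, which encodes troponin T of the thin filament, at 0.212 log2, and its means were 0.62 in epidermis, -2.49 in the central nervous system and -1.71 in midgut, with -2.14 in wing disc and -2.12 in salivary gland. The next were CG1674 at 0.228, rngo, a proteasome shuttle gene of the Ddi1 type, at 0.235, and Had1 and Pbgs, an enzyme gene of haem synthesis, both at 0.265. Sodh2, a sorbitol dehydrogenase gene, CG9701, Cht5, a chitinase gene, flap and CG43897 completed the 10 at distances up to 0.304. All were highest in epidermis and lowest in the central nervous system. In mean ratio they ranged more widely, from 0.18 in Sodh2 to 2.32 in Cht5 in epidermis, beside 0.51 in Rbp9. Over all arrays in place of the tissue means, 6 of the 10 genes of elav and 4 of those of Rbp9 stayed among the nearest 10.

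**Figure D3:**
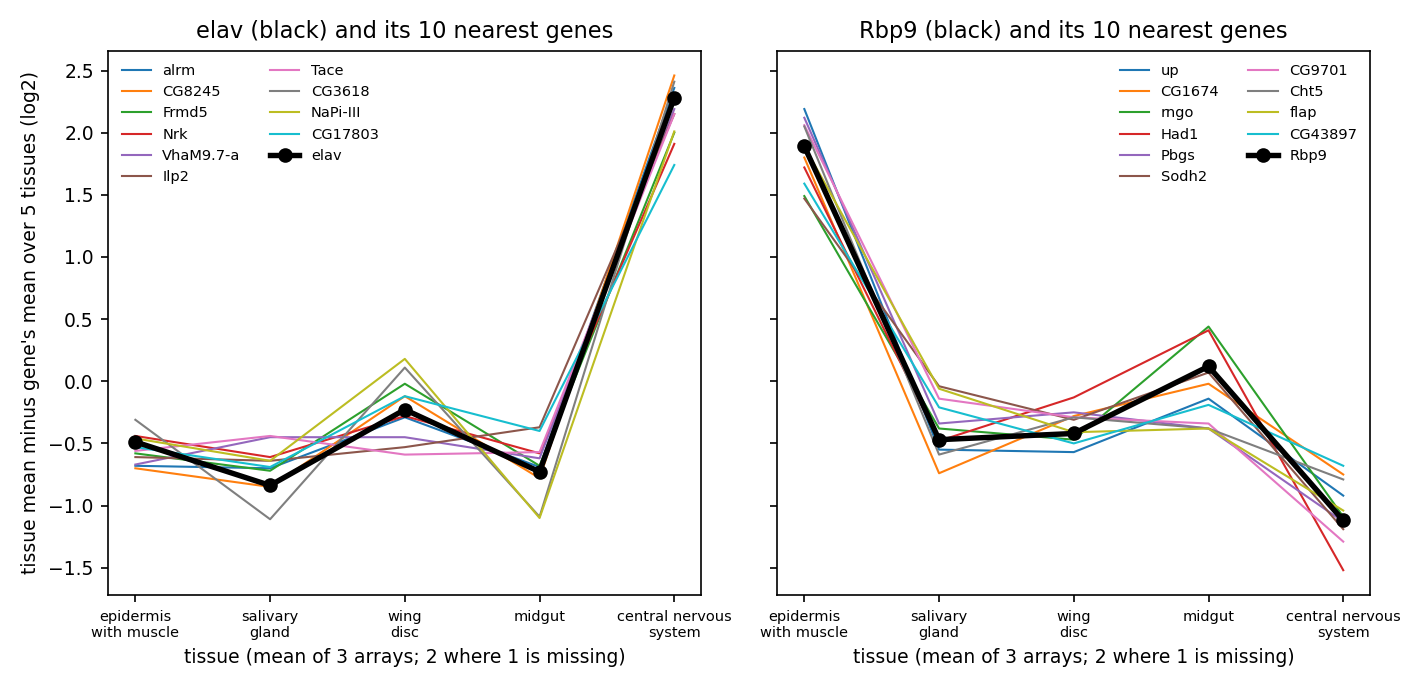
Tissue means of elav (left) and Rbp9 (right), in black, and of the 10 named genes nearest to each, in colour, each centred on its own mean over 5 tissues (log2). The genes on the left peak in the central nervous system, and those on the right are highest in epidermis and lowest in the central nervous system.

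Other RNA-binding protein genes were compared to place both genes among their kind. Of a list of 34, with relatives of the ELAV family and genes for splicing, translation and transport of RNA, 19 could be tested. In limma, with Benjamini-Hochberg adjustment over all features, 4 were higher in the central nervous system than in the mean of the other 4 tissues, 1 was lower and 14 did not pass. Over all features 22.1% passed (12.0% higher and 10.2% lower). The list's median difference was 0.26 log2, beside -0.07 for all features.

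The highest was brat, a translational repressor of neural stem cell progeny, at 2.38 log2 (SE 0.264, adjusted p = 2.19e-05). It was followed by mle, the RNA helicase gene of dosage compensation, at 1.45 (SE 0.186), tsu, of the exon junction complex, at 1.31 (SE 0.243), and Hrb98DE, a nuclear ribonucleoprotein gene, at 0.70 (SE 0.205). The lower one was ps, a KH domain splicing factor gene, at -0.88 (SE 0.219). The difference of elav, 2.86, thus lay above the highest of the list, and that of Rbp9, -1.40, below the lowest. Without central nervous system replicate 2, and likewise without replicate 3, 3 were higher and 0 lower.

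In epidermis none of the 19 rose and brat was lower, at -0.89 (SE 0.264, adjusted p = 0.0376 in limma), with 2 genes at an unadjusted p under 0.05. Over all features 11.7% passed there (8.11% higher and 3.63% lower). The call of brat was lost without epidermis replicate 1, salivary gland replicate 1 or 2, wing disc replicate 3 or central nervous system replicate 2. Sxl, the switch gene of sex determination, and its sister gene ssx, which also carry RNA recognition motifs, were at 0.20 (SE 0.177) and 0.02 (SE 0.195) in epidermis relative to the other 4 tissues and did not pass. None of the 19 had its highest mean in epidermis together with its lowest in the central nervous system. Over all features 5.59% had this pattern, so its absence among 19 genes does not set Rbp9 apart.

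**Figure D4:**
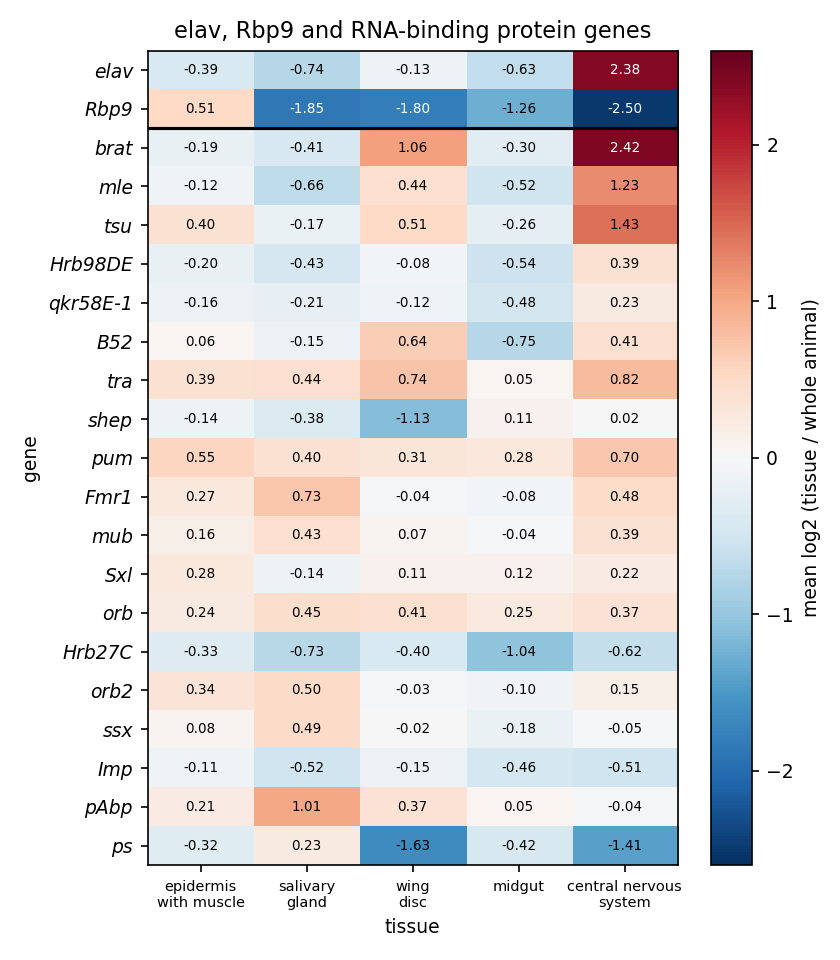
Mean log2 (tissue / whole animal) (colour and printed values) for elav, Rbp9 and the 19 RNA-binding protein genes that could be tested, ordered below the line by the difference between the central nervous system and the other 4 tissues. elav and brat hold the highest values in the central nervous system, at 2.38 and 2.42, and Rbp9 the lowest, at -2.50.

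Transcripts that ELAV or Rbp9 protein is reported to regulate were few on the arrays. Of 5 listed, 3 could be tested, and none passed in the central nervous system or in epidermis in limma (0 at an unadjusted p under 0.05 in epidermis and 1 in the central nervous system). Over all features 22.1% passed in the central nervous system and 11.7% in epidermis. Nrg, the neuroglian gene, which ELAV protein splices in neurons, was at 0.32 (SE 0.412, adjusted p = 0.63) in the central nervous system relative to the other 4 tissues. emc, of the helix-loop-helix family, and bam, a germ line differentiation gene, both bound by Rbp9 protein, were at 0.27 (SE 0.261) and -0.41 (SE 0.19). bam rested on 2 arrays in each of these tissues. A change in splicing could not be read from these values.

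Septate junction genes were looked at since Rbp9 acts in the blood-brain barrier, which these junctions seal. Of 14 tested, 2 were higher in the central nervous system than in the other 4 tissues, 4 were lower and 8 did not pass, beside 12.0% higher and 10.2% lower over all features, and the median difference was -0.11 log2. The 2 higher genes make a share close to that of all features. Nrx-IV, a core junction protein gene, was higher by 0.95 (SE 0.236, n = 2 arrays in the central nervous system) and nrv2, a sodium pump subunit gene of glia, by 0.95 (SE 0.297). The lower ones were vari at -1.06 (SE 0.287), pck, a claudin gene, at -0.95 (SE 0.181), Tsf2 at -0.70 (SE 0.216) and scrib at -0.67 (SE 0.167). Without central nervous system replicate 2, 0 were higher and 2 lower. In epidermis 0 of the 14 passed in limma (2 at an unadjusted p under 0.05), beside 11.7% of all features. The median difference there was 0.27, and 1 was higher without salivary gland replicate 1, without central nervous system replicate 2 or with arrays scaled to a common spread. Wing disc held the highest mean in 6 of the 14, and in 18.3% of all features.

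Genes of neurons and glia gave the setting for elav. Of 50 neuron genes listed, 36 were measured on some array and 17 could be tested. In the central nervous system 3 of the 17 were higher and 14 did not pass, with a median difference of 0.05 log2. Over all features 12.0% were higher, a share near that of the list. The higher ones were nrv3, a sodium pump subunit gene of neurons, at 2.28 (SE 0.263, adjusted p = 7.17e-05 in limma), unc-13, of synaptic vesicle priming, at 1.68 (SE 0.265), and brp, of the presynaptic active zone, at 0.68 (SE 0.207), all below elav. Without salivary gland replicate 2 the count was 1 of 13 tested. Over genes measured on all arrays it was 0 of 6, but nrv3, unc-13 and brp each lacked a value on some array. That setting leaves them out and so does not test their calls.

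The median of the tissue means of these 17 genes was 0.38 in the central nervous system, and 0.24 in salivary gland, 0.10 in epidermis, 0.08 in midgut and 0.05 in wing disc. The 17 leave out genes measured on fewer than 2 arrays in some tissue. Among those left out, and named after their values were seen, were Syn, the synapsin gene, at 2.04 in the central nervous system, CadN, a neuronal cadherin gene, at 1.71, and Nrx-1, a neurexin gene, at 0.93. Others left out, named in the same way, lay below the whole animal there. They included Rab3 at -0.44 (n = 2), Rdl at -0.40 (n = 2), eag at -0.32 (n = 1) and slo at -0.30 (n = 1). Low values in salivary gland, wing disc and midgut were not particular to Rbp9, since CadN was at -1.19 in salivary gland, -1.39 in wing disc (n = 1) and -1.74 in midgut (n = 2). Unlike Rbp9, CadN was low in epidermis as well, at -1.05 (n = 2), and high in the central nervous system. Of 7 glia genes tested, 3 were higher in the central nervous system, namely alrm at 2.95 (SE 0.306), the gap junction gene ogre at 1.16 (SE 0.237) and nrv2, and 4 did not pass. Over all features 12.0% were higher there. In epidermis 0 of the 17 neuron genes passed in limma (4 at an unadjusted p under 0.05, and 1 was higher without salivary gland replicate 2). Over all features 11.7% passed in epidermis (8.11% higher), so this count does not set the neuron genes apart. Of the glia genes Gs2, a glutamine synthetase gene, was higher there at 1.31 (SE 0.306), a call lost without epidermis replicate 3. Without epidermis replicate 1, and with arrays centred on features measured on all of them, 1 glia gene was higher and 1 lower.

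Markers of the cells in the epidermis sample were set beside Rbp9. Of 14 larval muscle genes tested, 12 were higher in epidermis than in the other 4 tissues and 2 did not pass, with a median difference of 2.86 log2, beside 2.37 for Rbp9. For up the difference was 2.73 (SE 0.275, adjusted p = 2.45e-06 in limma). Of 10 epidermis and cuticle genes 5 were higher, and of 5 oenocyte and trachea genes 3 were, each chitin-related or a membrane protein gene of trachea and epidermis: serp at 2.90 (SE 0.266), verm at 2.47 (SE 0.192) and uif at 1.55 (SE 0.452). Over all features 8.11% were higher in epidermis. Among the other lists 1 of 11 blood cell genes was higher (Pxn at 1.10, SE 0.327), 1 of 3 sensory neuron genes was (pain at 0.89, SE 0.191), 0 of 4 fat body genes were (1 at an unadjusted p under 0.05, and 1 was higher without midgut replicate 3), and 0 of 5 germ line genes were (1 at an unadjusted p under 0.05), all in limma. The Pxn call was lost without centring of the arrays, and without epidermis replicate 2 or 3, salivary gland replicate 1, wing disc replicate 1, midgut replicate 3 or central nervous system replicate 3, and without epidermis replicate 1 or salivary gland replicate 2 the blood cell count was 2.

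List medians differed between the epidermis arrays, as Rbp9 did. On replicates 1, 2 and 3 the median of the muscle genes was 0.40, 0.61 and 1.07, that of the cuticle genes was 0.21, 1.27 and 2.25, and Rbp9 read -0.06, 0.73 and 0.87. All 3 were thus lowest on replicate 1 and highest on replicate 3, and so were 7 further lists of the 15, among them those of neuron, glia and RNA-binding protein genes. This order of the arrays was therefore no trait of muscle, cuticle and Rbp9 alone. The medians were not over the same genes on each array. On replicates 1, 2 and 3 they rested on 17, 17 and 11 neuron genes and on 9, 10 and 8 cuticle genes. The share of muscle or epidermis in a sample, and its part in the level of Rbp9, was not tested. In the central nervous system 9 of the 14 muscle genes were lower than in the other 4 tissues and 5 did not pass, beside 10.2% lower over all features. Their median difference was -1.20, beside -1.40 for Rbp9. With the arrays scaled alike in spread the count of lower muscle genes was 5.

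**Figure D5:**
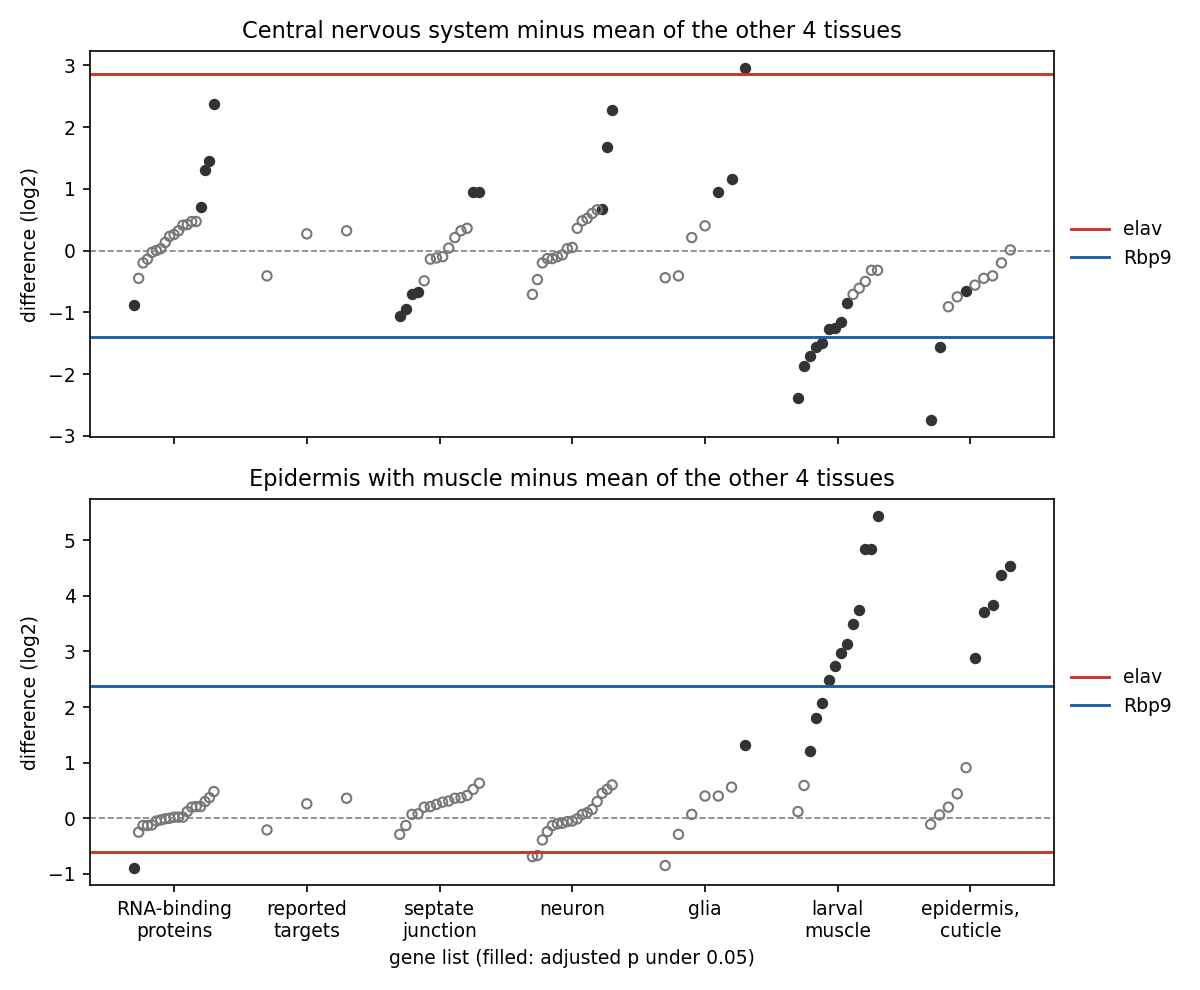
Differences (log2) between the central nervous system (top) or epidermis (bottom) and the mean of the other 4 tissues for the tested genes of 7 lists. Filled points have an adjusted p under 0.05 in limma, and lines mark elav (red) and Rbp9 (blue), which were not tested. elav lies above all points of the top panel but alrm, and Rbp9 lies among the muscle genes in both panels.

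Directly between the central nervous system and epidermis, 17.5% of features passed (7.92% higher and 9.56% lower in the central nervous system). That balance turned with the centring, with 825 features higher and 679 lower without centring and 760 against 726 with arrays centred on features measured on all of them. elav differed by 2.77 log2 and Rbp9 by -3.02. Values as low as that of Rbp9, or lower, were found in 102 features, 1.21% of all, and values as high as that of elav, or higher, in 17. The step of Rbp9 from the central nervous system to epidermis therefore exceeded that of elav in the opposite direction by a margin smaller than the spread of either gene (within-tissue SD 0.464 for elav and 0.469 for Rbp9). The probes' sequences were not used here, so hybridisation of one gene's RNA to the other's spots was not tested.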

How the data were processed

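Per the labels, each of the 15 arrays set amplified RNA of 1 tissue (Cy5) against whole animals (Cy3). The values deposited by the authors are log2 ratios, 1 column per array. The sources used here do not give the scanner, background correction or normalization. Of 20000 rows, 14051 had a value, and 10817 of these had exactly 1 gene in the array's annotation (227 had several, 3007 none; 10813 matched a current gene record by gene ID). Each array was centred on its median, and rows of 1 gene were averaged. Every feature was fitted over all arrays with 1 mean per tissue in limma 3.58.1 (R 4.3.3), with empirical Bayes variances (prior degrees of freedom 5.965). Features measured on at least 2 arrays in every tissue (8432) were tested, with Benjamini-Hochberg adjustment and a threshold of 0.05. Errors are SE of the fit or SD over 3 arrays. p-values measure the spread between samples and the number of arrays limits their precision. The fit was tested on simulated data. Tables and plots used python 3.11.15, pandas 2.3.3 and matplotlib 3.10.9.

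The genes, gene lists and alternatives were chosen with earlier results of these data known. The rule for naming covered elav and Rbp9, any gene of the RNA-binding, target and septate junction lists, up to 4 called genes per other list and comparison with the largest differences, and the 10 nearest genes by profile. Named outside this rule, after values were seen, were some list members that were not tested or did not pass, and the chromosome neighbours of Rbp9. Alternatives were no centring, centring on features measured on all arrays, scaling to a common spread, a minimum of 3 arrays, 1 row per gene, a replicate block and leaving out each array.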

Additional observations from a re-analysis of the deposited data

Results flagged for a closer look

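elav lay above the whole animal on all 3 arrays of the central nervous system and below it on all 3 arrays of epidermis, a gap between the tissue means of 2.77 log2. In the same way it lay below the whole animal on all 3 midgut arrays, a gap of 3.02 log2 from the central nervous system. Neither difference was tested, since the gene was chosen for it. For Rbp9 no pair of tissues lay wholly on opposite sides of the whole animal, because epidermis replicate 1 read -0.06. Groups of 3 arrays are too small for a check of single arrays that stand apart.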

How the results depend on the processing

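Under the alternatives run, all 84 recomputed differences of single genes moved by less than that gene's within-tissue SD (0.464 for elav, 0.469 for Rbp9) and kept their sign. Some of the 84 could not have moved. A replicate block and a minimum of 3 arrays change nothing for genes measured on all arrays, nor does 1 row per gene for elav. Leaving out 1 array can move a mean of 3 arrays only by a limited part of their SD. Given the SDs here, such moves could not have reached the gene's within-tissue SD, so these runs are no check of that limit. With 1 array left out, elav in the central nervous system ran from 2.68 to 3.06 log2 above the other 4 tissues, and Rbp9 in epidermis from 2.19 to 2.66. Rbp9 in the central nervous system ran from -1.65 to -1.0, the latter without replicate 3, and was -1.75 by its first row alone. The contrast of the genes between epidermis and the central nervous system (5.79 log2) ran from 5.21, without central nervous system replicate 3, to 6.21, moves smaller than the combined SD of both genes (0.659), though the former exceeds either gene's own SD. Centring, a replicate block or leaving out an array of another tissue cannot move this contrast. Leaving out an array of epidermis or the central nervous system moves it, but given their SDs it could not have moved by as much as 0.659. Counts of all features called depended more on single arrays. In the central nervous system 1866 features passed, and 1159 to 1977 with 1 array left out (1159 without central nervous system replicate 2, 1182 without replicate 3). In epidermis 990 passed, and 594 to 1152 (594 without epidermis replicate 3), and 1474 passed between both tissues, with 995 to 1635. Fewer features are tested when an array is left out. The share of higher calls in epidermis was 69.1%, 56.0% with arrays centred on features measured on all of them, and 83.3% without epidermis replicate 3, where lower calls went from 306 to 99. With a replicate block, 1880 features passed in the central nervous system and 1005 in epidermis. The differences of elav and Rbp9 cannot change with this block, since both genes were measured on every array. Whether the replicate numbers pair the arrays was not settled. Deviations of same-numbered arrays of different tissues had correlations of -0.487 to 0.352 (median 0.0345), with 11 of 30 over 0.1. Those of differently numbered arrays ran from -0.43 to 0.58 (median -0.0299), with 13 of 60 over 0.1. In every tissue replicate 3 had the fewest measured rows. Of 957 recomputed counts for the lists and nearest genes, 847 stayed within 1.5 times, 87 were lower, 18 higher, and 5 lists of nearest genes shared 4 to 6 of 10 with the reported ones. Signal over background is not given, so low signal could not be weighed.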

Other observations

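The genes beside Rbp9 on its chromosome were read for their values after those of Rbp9 were known. Ts, a gene that overlaps Rbp9 in the current gene table, was highest in wing disc at 0.82 (SD 0.13, n = 3), at 0.45 (SD 0.323) in the central nervous system and at -0.12 (SD 0.235) in epidermis. Of the genes on either side, Rrp1, a DNA repair nuclease gene, was at 0.27 (SD 0.168) in the central nervous system and at -0.99 (SD 0.335) in epidermis. The other, lilli, lay between -0.21 and 0.09 in the 5 tissues. None of the 3 was highest in epidermis and lowest in the central nervous system, a pattern of 5.59% of all features. For elav, the overlapping gene and both neighbours were not analysed here.

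Of the 17 neuron genes 1 was highest in epidermis and lowest in the central nervous system, as Rbp9 was, a share near the 5.59% of all features with that pattern. It was nAChRalpha1, an acetylcholine receptor subunit gene named after its value was seen, which was at 0.33 in epidermis and -0.61 (SD 1.04, n = 2) in the central nervous system, and its difference there from the other 4 tissues was -0.71 (SE 0.351, adjusted p = 0.176 in limma), which did not pass.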
